A study of Mus musculus with 24 samples.

Results

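The genes described here are 39 genes of the cell cycle and of DNA replication, taken by their symbols from a table of 24532 mouse genes measured by RNA-seq. All 39 were found. They were divided into 14 G1/S genes (*Ccne1*, *Ccne2*, *Mcm2* to *Mcm7*, *Pcna*, *Rrm1*, *Rrm2*, *Tyms*, *Tk1* and *E2f1*), 24 G2/M genes (*Mki67*, *Top2a*, *Cdk1*, *Ccnb1*, *Ccnb2*, *Ccna2*, *Cdc20*, *Bub1*, *Bub1b*, *Aurka*, *Aurkb*, *Plk1*, *Kif11*, *Kif20a*, *Birc5*, *Tpx2*, *Foxm1*, *Cenpa*, *Cenpe*, *Nusap1*, *Prc1*, *Cdca3*, *Cdca8* and *Ube2c*) and *Ccnd1*, the gene of the G1 cyclin D1, which stood alone. The mice were of the C57BL/6 strain, ate chow and were 8 weeks old. Ctrl mice had the genotype Crif1flox/flox and LKO mice Alb-Cre;Crif1flox/flox, so both carried the floxed *Crif1* alleles, and the LKO mice carried in addition a Cre recombinase under the albumin promoter, which is active in hepatocytes. *Crif1* (listed as *Gadd45gip1*) encodes a protein of the large mitoribosomal subunit. The hypothalamus, skeletal muscle (GM), inguinal white fat (iWAT) and liver were sequenced in 3 Ctrl and 3 LKO libraries each, 24 in all. It is not given in the labels if a mouse gave more than 1 tissue, or that each library was a separate mouse, so p-values measure the spread between these libraries.

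A dividing cell copies its DNA in S phase and separates the copies in M phase. D and E type cyclins and the E2F factors open the G1/S step, at which the MCM helicase, PCNA and the enzymes of nucleotide synthesis are made. Cyclins A and B with CDK1, the Aurora and Polo kinases and the proteins of the spindle and kinetochore act later, in G2 and M, and the anaphase-promoting complex then marks the cyclins for destruction. Hepatocytes of the adult liver are mostly at rest, but they can return to the cycle, and many are polyploid.

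Values are FPKM, in which the fragments of a gene are divided by its transcript length and by the total of the library. Each tissue was fitted alone with limma on log2(FPKM + 1), a scale on which the change of low genes is understated. A gene rose or fell where this scale gave a change of at least 1.5-fold and the p, adjusted by Benjamini and Hochberg across the genes of the tissue, was under 0.05, which is called the adjusted rule. The unadjusted rule asks for the same fold with an unadjusted p under 0.05.

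The depth of the 24 libraries, inferred from coverage, was 4.45 to 8.09 gigabases (median 5.19). *Crif1* was 14.6, 12.5 and 13.6 FPKM in Ctrl livers 1 to 3 and 5.40, 2.0 and 2.51 FPKM in LKO livers 1 to 3, a fall of the adjusted rule (log2 fold change -1.84, SE 0.285, adjusted p = 0.0101), so LKO 1 kept the most. In iWAT, GM and hypothalamus the *Crif1* change lay between -0.22 and 0.02 log2, with adjusted p-values of at least 0.51. Summed adipocyte markers were 20900 to 27050 FPKM in iWAT, muscle markers 86070 to 94990 FPKM in GM, and hypothalamic neuropeptides 1383 to 1853 FPKM in hypothalamus. Hepatocyte markers summed to 55950 to 58710 FPKM in Ctrl livers and to 67740, 54580 and 42220 FPKM in LKO 1 to 3. In liver the median change over all 17883 genes tested was 0.19 log2, with 78.0% of genes above 0, and scaling by the median ratio between libraries moved that median to 0.00, so changes in liver stand below beside this shift, and counts and medians of gene lists are given again on the scaled values.

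In the liver, all 24 G2/M genes rose in LKO mice, as did 9 of the 14 G1/S genes and *Ccnd1*, which makes 34 of the 39 genes. The adjusted rule called 13.9% of all genes tested in liver higher and 1.95% lower, and it called none of the 39 lower. The median log2 change was 2.04 for the G2/M genes (0.92 to 3.71) and 0.79 for the G1/S genes (-0.94 to 1.54), against 0.19 for all genes. By the unadjusted rule 36 of the 39 were higher and 1, *Tk1*, was lower, against 16.8% and 2.35% of all genes. In 37 of the 39 every LKO liver lay above every Ctrl liver, which held for 44.0% of all genes tested, and the reverse, seen for 6.21% of all genes, held for none. In bulk tissue, more cells with a transcript and more of it per cell cannot be told apart.

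**Figure D1:**
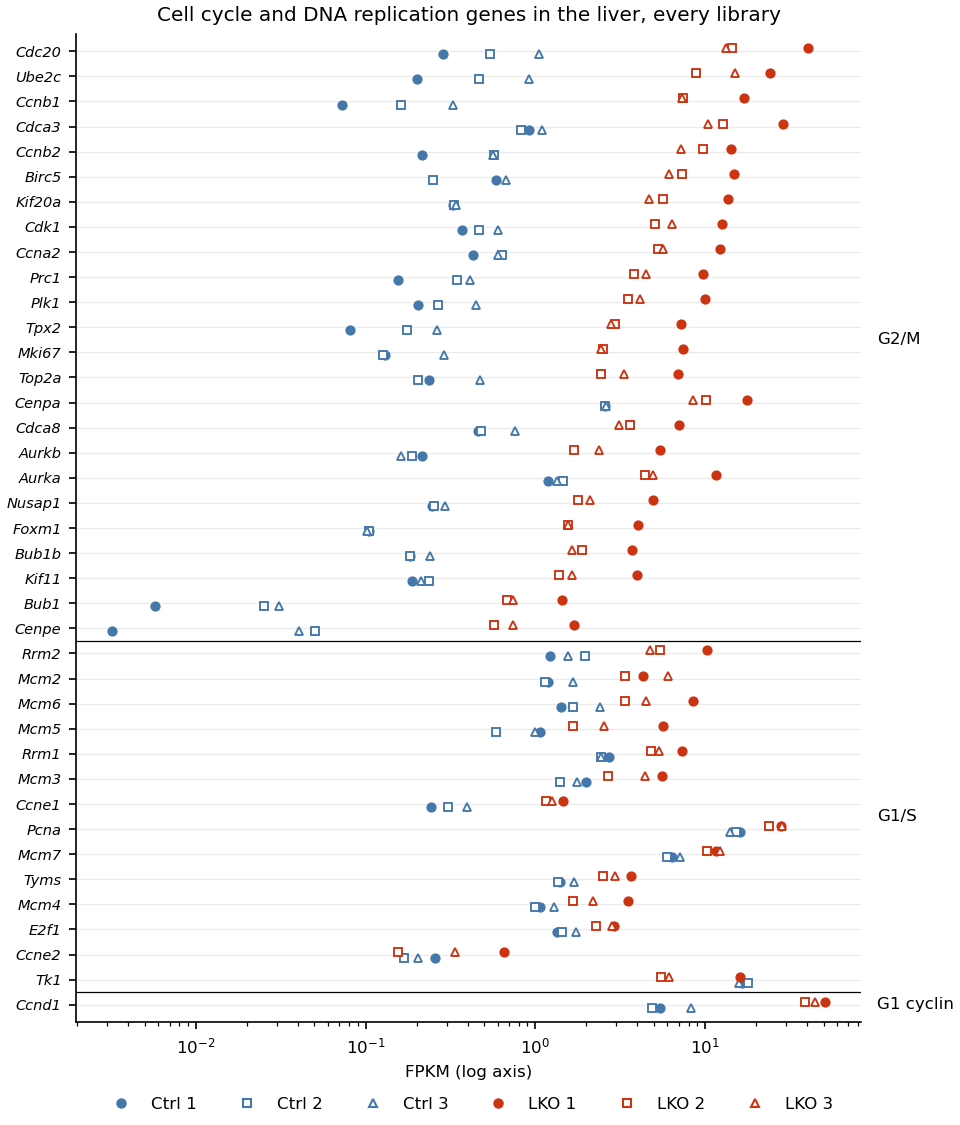
FPKM of the 39 genes in each of the 6 liver libraries, on a log axis, with Ctrl in blue and LKO in red, and the shape giving the library number (1 filled). For the 24 G2/M genes every red symbol lies to the right of every blue one, with LKO 1 farthest right, while most G1/S genes show a smaller gap and *Tk1* has LKO 2 and LKO 3 to the left of the Ctrl livers.

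The cyclins and the kinase of mitotic entry were among the genes with the largest changes. *Ccnb1* (NCBI Gene 268697, chr13:100778739-100786486 on mm10), the gene of cyclin B1, was 0.0723, 0.161 and 0.328 FPKM in Ctrl 1 to 3 and 16.9, 7.38 and 7.33 FPKM in LKO 1 to 3 (log2 fold change 3.19, SE 0.32, adjusted p = 0.00411). *Ccnb2*, which encodes cyclin B2, was 0.214, 0.573 and 0.567 FPKM in Ctrl 1 to 3 and 14.3, 9.73 and 7.24 FPKM in LKO 1 to 3 (log2 fold change 2.94, SE 0.252, adjusted p = 0.00317). For both B cyclins the Ctrl livers were under 1 FPKM, the LKO livers were all above 7 FPKM, and LKO 1 was the highest. *Ccna2*, which encodes cyclin A2, a partner of CDK2 in S phase and of CDK1 in G2, was 0.427, 0.638 and 0.60 FPKM in Ctrl 1 to 3 and 12.3, 5.27 and 5.69 FPKM in LKO 1 to 3 (log2 fold change 2.41, SE 0.30, adjusted p = 0.00598). *Cdk1* (NCBI Gene 12534, chr10:69336635-69352912), the gene of the kinase that drives entry into mitosis, was 0.369, 0.466 and 0.603 FPKM in Ctrl 1 to 3 and 12.6, 5.11 and 6.37 FPKM in LKO 1 to 3 (log2 fold change 2.52, SE 0.302, adjusted p = 0.00542). The lowest LKO liver was above the highest Ctrl liver for both. *Ccna2* shares 378 of its 3627 exon bases with *Exosc9* on the opposite strand, which was 6.69 to 9.13 FPKM in Ctrl, far above *Ccna2* there, and 9.54 to 13.6 FPKM in the LKO group, a difference of 0.49 log2 with an adjusted p of 0.0671, so a part of the *Ccna2* reads may belong to either gene. *Foxm1*, which encodes a transcription factor of G2/M genes, was lower in level, at 0.104, 0.105 and 0.103 FPKM in Ctrl 1 to 3 and 4.02, 1.56 and 1.56 FPKM in LKO 1 to 3 (log2 fold change 1.54, SE 0.267, adjusted p = 0.0133), with no overlap.

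*Cdc20* (NCBI Gene 107995, chr4:118432901-118437343), which encodes an activator of the anaphase-promoting complex, was 0.287, 0.543 and 1.06 FPKM in Ctrl 1 to 3 and 40.5, 14.5 and 13.3 FPKM in LKO 1 to 3 (log2 fold change 3.71, SE 0.439, adjusted p = 0.00527). *Ube2c*, the gene of the ubiquitin-conjugating enzyme of that complex, was 0.20, 0.466 and 0.918 FPKM in Ctrl 1 to 3 and 24.2, 8.85 and 15 FPKM in LKO 1 to 3 (log2 fold change 3.40, SE 0.366, adjusted p = 0.00454). *Cdca3*, whose product takes part in the breakdown of the mitotic inhibitor WEE1, was 0.923, 0.82 and 1.09 FPKM in Ctrl 1 to 3 and 28.8, 12.7 and 10.4 FPKM in LKO 1 to 3 (log2 fold change 3.10, SE 0.359, adjusted p = 0.00513). In *Cdc20*, *Ube2c* and *Cdca3* the groups were far apart, and Ctrl 3 was the highest Ctrl liver. The ratios of the mean FPKM of LKO to Ctrl were 36.2 for *Cdc20*, 30.4 for *Ube2c* and 18.3 for *Cdca3*. The largest such ratio of the 39 was 56.3 for *Ccnb1*, the lowest of these 4 genes in Ctrl. *Cdc20* shares 53 of its 1793 exon bases with *Elovl1* on the opposite strand, which was 24.2 to 25.9 FPKM in Ctrl and 32.4 to 44.9 FPKM in LKO livers.

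The kinases and the chromosomal passenger complex rose as well. *Birc5*, which encodes survivin, a subunit of that complex, was 0.589, 0.25 and 0.674 FPKM in Ctrl 1 to 3 and 14.8, 7.28 and 6.14 FPKM in LKO 1 to 3 (log2 fold change 2.71, SE 0.318, adjusted p = 0.00525). *Plk1*, the gene of Polo-like kinase 1, was 0.204, 0.267 and 0.447 FPKM in Ctrl 1 to 3 and 10.1, 3.54 and 4.14 FPKM in LKO 1 to 3 (log2 fold change 2.29, SE 0.342, adjusted p = 0.00916). Neither gene's groups overlapped. *Aurkb*, the kinase of the passenger complex, rose by 1.71 log2 (adjusted p = 0.0148), *Cdca8*, its subunit borealin, by 1.77 log2 (adjusted p = 0.00912), and *Aurka*, the Aurora kinase of the centrosome, by 1.67 log2 (adjusted p = 0.0175). *Aurka* and *Cenpa* were the G2/M genes above 1 FPKM in every Ctrl liver, and *Aurka* was 1.2, 1.45 and 1.35 FPKM there and 11.6, 4.44 and 4.93 FPKM in LKO 1 to 3.

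Spindle, kinetochore and chromosome genes completed the group. *Kif20a*, which encodes a kinesin of the central spindle, was 0.327, 0.333 and 0.34 FPKM in Ctrl 1 to 3 and 13.7, 5.68 and 4.69 FPKM in LKO 1 to 3 (log2 fold change 2.63, SE 0.353, adjusted p = 0.00703), and 1271 of its 3999 exon bases overlap *Cdc23* on the opposite strand, so a part of its reads may belong to either gene. *Cdc23* itself was 3.19, 2.96 and 2.94 FPKM in Ctrl and 5.35, 5.32 and 5.69 FPKM in LKO, without the high LKO 1 of *Kif20a*. *Prc1*, which bundles the microtubules of the midzone, was 0.156, 0.347 and 0.411 FPKM in Ctrl 1 to 3 and 9.7, 3.84 and 4.47 FPKM in LKO 1 to 3 (log2 fold change 2.34, SE 0.309, adjusted p = 0.0067). *Tpx2*, which activates Aurora A on the spindle, was 0.0808, 0.176 and 0.264 FPKM in Ctrl 1 to 3 and 7.25, 2.94 and 2.78 FPKM in LKO 1 to 3 (log2 fold change 2.09, SE 0.31, adjusted p = 0.00905). Neither *Prc1* nor *Tpx2* reached 0.5 FPKM in any Ctrl liver. *Mki67* (NCBI Gene 17345, chr7:135689788-135716379), the proliferation marker Ki-67, was 0.13, 0.127 and 0.289 FPKM in Ctrl 1 to 3 and 7.47, 2.5 and 2.45 FPKM in LKO 1 to 3 (log2 fold change 1.99, SE 0.358, adjusted p = 0.0143). Its LKO 2 and LKO 3 values nearly coincided, and LKO 1 stood far above both. *Top2a*, the topoisomerase that disentangles replicated chromosomes, rose by 1.92 log2, and the centromeric histone gene *Cenpa* rose by 1.80 log2 from a Ctrl level of 2.58, 2.59 and 2.62 FPKM, the highest of the G2/M group. *Nusap1* and *Kif11*, which act on spindle microtubules, rose by 1.56 and 1.38 log2. *Nusap1* shares 172 of its 4044 exon bases with *Oip5* on the opposite strand, which itself rose by 1.28 log2. The spindle checkpoint genes *Bub1b* and *Bub1* rose by 1.46 and 0.92 log2, and *Cenpe*, a kinetochore motor, by 0.92 log2. *Bub1* and *Cenpe* had the smallest changes on this scale and were low in both groups. *Bub1* was 0.00576, 0.0251 and 0.0309 FPKM in Ctrl 1 to 3 and 1.45, 0.679 and 0.742 FPKM in LKO 1 to 3. *Cenpe* was 0.0032, 0.0507 and 0.0406 FPKM in Ctrl 1 to 3 and 1.69, 0.568 and 0.743 FPKM in LKO 1 to 3.

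As a group, 20 of the 24 G2/M genes were under 1 FPKM in all 3 Ctrl livers, and 22 were at or above 1 FPKM in all 3 LKO livers. The ratio of mean FPKM ranged from 4.66 to 56.3, with a median of 19.0. Summed over the 24 genes, the level was 9.39, 10.9 and 13.9 FPKM in Ctrl 1 to 3 and 281, 119.5 and 121 FPKM in LKO 1 to 3. LKO 1, the LKO liver with the most *Crif1*, was the highest LKO library for 24 of 24 G2/M genes and 11 of 14 G1/S genes, at a median of 2.44 times the mean of LKO 2 and LKO 3 for G2/M and 1.51 times for G1/S. Without LKO 1, all 24 G2/M genes remained past the adjusted rule, against 23.5% of all genes, and their median change was 1.65 log2 against 0.24 for all genes. The adjusted calls were less stable when a Ctrl liver was left out, with 17, 16 and 17 of the 24 left without Ctrl 1, 2 and 3, against 6.17%, 4.6% and 4.67% of all genes. Of the 24 genes, 16 stayed called without any 1 of the 6 livers, and the other 8 (*Mki67*, *Top2a*, *Aurka*, *Aurkb*, *Kif11*, *Foxm1*, *Cenpe* and *Nusap1*) then reached adjusted p-values of 0.0522 to 0.0752.

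The changes of the G1/S genes were smaller, and fewer of them passed. Of the genes of the MCM helicase, which unwinds DNA at the fork, *Mcm2* was 1.19, 1.15 and 1.67 FPKM in Ctrl 1 to 3 and 4.29, 3.37 and 6.06 FPKM in LKO 1 to 3 (log2 fold change 1.23, SE 0.207, adjusted p = 0.0122). *Mcm6* was 1.42, 1.66 and 2.39 FPKM in Ctrl 1 to 3 and 8.53, 3.38 and 4.49 FPKM in LKO 1 to 3 (log2 fold change 1.13, SE 0.309, adjusted p = 0.041). In neither did the groups overlap, and LKO 1 was highest for *Mcm6* but not for *Mcm2*. *Mcm3* was 2.0, 1.4 and 1.76 FPKM in Ctrl 1 to 3 and 5.61, 2.69 and 4.42 FPKM in LKO 1 to 3 (log2 fold change 0.91, SE 0.235, adjusted p = 0.0357). *Mcm7* was 6.35, 5.99 and 7.09 FPKM in Ctrl 1 to 3 and 11.6, 10.3 and 12.3 FPKM in LKO 1 to 3 (log2 fold change 0.73, SE 0.107, adjusted p = 0.0087). *Mcm7* had a smaller change than *Mcm3*, a higher level and LKO livers that lay closer together. *Mcm5* and *Mcm4* did not pass, with log2 fold changes of 1.09 and 0.68 and adjusted p-values of 0.0579 and 0.0532, although in both every LKO liver was above every Ctrl liver.

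Of the genes of nucleotide synthesis, *Rrm2*, the S-phase subunit of ribonucleotide reductase, was 1.21, 1.96 and 1.56 FPKM in Ctrl 1 to 3 and 10.3, 5.42 and 4.74 FPKM in LKO 1 to 3 (log2 fold change 1.54, SE 0.28, adjusted p = 0.0145), the largest change of the G1/S group. Its partner *Rrm1* was 2.72, 2.43 and 2.45 FPKM in Ctrl 1 to 3 and 7.34, 4.8 and 5.36 FPKM in LKO 1 to 3 (log2 fold change 0.94, SE 0.162, adjusted p = 0.0133). LKO 1 was the highest in both. *Tyms*, thymidylate synthase, rose by 0.70 log2 (adjusted p = 0.020), and since a pseudogene copy, *Tyms-ps*, is also listed, its reads may be split between the copies. *Pcna* (NCBI Gene 18538, chr2:132249286-132253180), the sliding clamp of the replicative polymerases, was 16.2, 15.2 and 14.1 FPKM in Ctrl 1 to 3 and 28, 23.9 and 28.6 FPKM in LKO 1 to 3 (log2 fold change 0.78, SE 0.10, adjusted p = 0.00627). It was by far the most abundant of the genes called in this group, and its ratio of mean FPKM was only 1.77. *Ccne1*, which encodes cyclin E1, the partner of CDK2 at the G1/S step, was 0.243, 0.308 and 0.397 FPKM in Ctrl 1 to 3 and 1.46, 1.16 and 1.25 FPKM in LKO 1 to 3 (log2 fold change 0.80, SE 0.080, adjusted p = 0.00411), with the 3 LKO livers close together. *E2f1*, a transcription factor of S-phase genes, was 1.35, 1.43 and 1.74 FPKM in Ctrl 1 to 3 and 2.89, 2.28 and 2.84 FPKM in LKO 1 to 3, which is under the fold limit (log2 fold change 0.55, adjusted p = 0.0267). *Ccne2*, the gene of cyclin E2, was 0.256, 0.169 and 0.204 FPKM in Ctrl 1 to 3 and 0.655, 0.156 and 0.335 FPKM in LKO 1 to 3 and overlapped between the groups, and it shares 336 of its 3200 exon bases with *Ints8* on the opposite strand (log2 fold change 0.18, adjusted p = 0.32).

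*Tk1*, thymidine kinase of the salvage pathway, was the gene that ran the other way. It was 16.5, 18 and 15.8 FPKM in Ctrl 1 to 3 and 16, 5.54 and 6.15 FPKM in LKO 1 to 3, with a log2 fold change of -0.94 and an adjusted p of 0.0969. LKO 1 lay within the Ctrl range, and LKO 2 and LKO 3 lay far below it. Without LKO 1 it was called lower (log2 fold change -1.38, adjusted p = 7.9e-04), as were 2.95% of all genes. *Tk1* shares 83 of its 1440 exon bases with *Afmid*, a liver enzyme of tryptophan breakdown on the opposite strand, and *Afmid* was 48.5, 49.7 and 49.0 FPKM in Ctrl and 38.7, 24.4 and 23.5 FPKM in LKO (log2 fold change -0.78, adjusted p = 0.0310). Reads of these genes cannot be told apart over the shared bases unless the counting used strand, which is not stated, and the part of *Afmid* in the *Tk1* values was not tested. The Ctrl liver was also the Ctrl tissue with the most *Tk1*, while iWAT was highest for 9 of the 14 G1/S genes (8 without its Ctrl 2).

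Leaving out a Ctrl liver left 3 or 4 of the 9 G1/S calls and 16 or 17 of the 24 G2/M calls, while the share of all genes called higher dropped from 13.9% to 6.17%, 4.6% and 4.67% without Ctrl 1, 2 and 3. The G1/S median in these fits was 0.79, 0.79 and 0.82 log2, against 0.79 with all 6 livers. *Ccne1*, *Mcm7* and *Pcna* stayed called without any 1 of the 6 livers. *Mcm2*, *Mcm3*, *Mcm6*, *Rrm1*, *Rrm2* and *Tyms* each lost the call in at least 1 such fit, with adjusted p-values of up to 0.119 for *Mcm6*. The 14 genes summed to 52.9, 52.7 and 53.2 FPKM in Ctrl 1 to 3 and to 109.5, 68.9 and 84.2 FPKM in LKO 1 to 3. The sum over the 24 G2/M genes was 0.178, 0.208 and 0.261 times the sum over the 14 G1/S genes in Ctrl livers, and 2.57, 1.74 and 1.43 times in LKO livers. *Pcna* and *Tk1* made up most of the G1/S sum in Ctrl livers. Without these genes the G2/M sum was 0.463, 0.563 and 0.597 times the G1/S sum in Ctrl livers and 4.29, 3.03 and 2.44 times in LKO livers.

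*Ccnd1* (NCBI Gene 12443, chr7:144929931-144939925), whose product cyclin D1 activates CDK4 and CDK6 when a cell leaves rest, was 5.4, 4.87 and 8.3 FPKM in Ctrl 1 to 3 and 51.3, 38.6 and 44.4 FPKM in LKO 1 to 3 (log2 fold change 2.69, SE 0.20, adjusted p = 0.00236). The 3 LKO livers were close to each other and all at least 4.65 times the highest Ctrl liver. It had the smallest adjusted p of the 39 genes, stayed called when any of the 6 livers was left out, and did not share the high LKO 1 of the G2/M genes to the same extent.

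When the libraries were brought to a common level by median-ratio scaling, 25 of the 34 calls were left, and the loss fell mainly on the G1/S genes. On these values 5.45% of all liver genes were called higher and 4.65% lower, and the share of higher genes among all calls went from 87.7% to 54.0%. Called higher were 22 of the 24 G2/M genes, 2 of the 14 G1/S genes (*Ccne1* and *Mcm2*) and *Ccnd1*. *Aurka* and *Cenpe* were lost from the G2/M group, with adjusted p-values of 0.0572 and 0.0504. The median log2 change was 1.84 for G2/M and 0.50 for G1/S, against 0.00 for all genes. The groups did not overlap in 34 genes, of which 9 were G1/S genes, with all LKO livers higher, and in *Tk1*, with all LKO livers lower, against 21.9% and 20.8% of all genes. With quantile normalization, 19 G2/M genes, 1 G1/S gene and *Ccnd1* were called higher and none of the 39 lower, against 4.73% and 4.06% of all genes. On the deposited FPKM, 36 of the 39 genes had at least 1 FPKM in 3 of the 6 livers, and within this set 34 were called higher and none lower, against 23.9% and 3.5% of all genes in the set. As 20 of the 24 G2/M genes were under 1 FPKM in all Ctrl livers, most of them entered this set through the LKO livers alone. The count in the set is therefore no separate support for the rise.

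**Figure D2:**
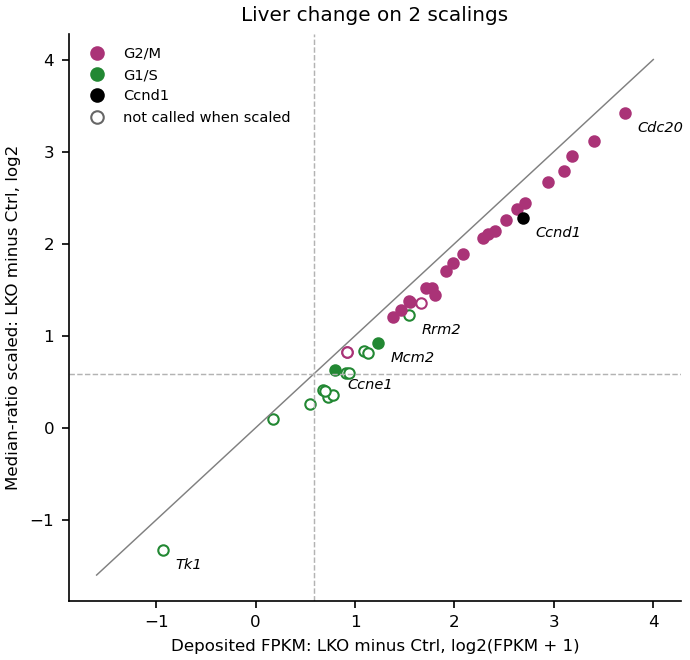
Log2 change in the liver (LKO minus Ctrl) of each of the 39 genes on the deposited FPKM (horizontal) and after scaling the 6 libraries by median ratio (vertical). The thin line marks equal values, dashed lines mark 1.5-fold, and open symbols were not called after scaling. All genes lie below the line, most G2/M genes stay called, and of the G1/S genes *Mcm2* and *Ccne1* do.

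The promoters of the changed genes are shown for 5 members, because the G2/M and G1/S genes moved by different amounts and differed in what these sequences hold. RefSeq promoters on GRCm38.p6, from 250 bases before to 50 after the RefSeq start of the gene, were matched by gene ID for 31 of the 39 genes (19 G2/M and 12 G1/S). *Foxm1*, *Ccna2*, *Ccne2*, *Ccnd1*, *Aurkb*, *Kif20a*, *Mcm4* and *Tpx2* were not matched. The window of *E2f1* lies inside the span listed for the gene, and that of *Mcm3* lies wholly before it. For *Aurka*, *Kif11*, *Mcm5* and *Mcm6* the last 30 bases of the window were not found in annotated transcripts, so their starts are less sure. These 6 genes remain in the counts below. Capitals mark 3 kinds of motif, read on both strands, in which matches may overlap: the cell cycle homology region (CHR, TTTGAA or TTTAAA), the CCAAT box (CCAAT), and E2F sites (TTTCCCGC, TTTGGCGC, TTTCGCGC or TTTGCCGC). *Ccnb1* (chr13:100786437-100786736, minus strand), *Cdc20* (chr4:118437294-118437593, minus strand) and *Ube2c* (chr2:164769679-164769978, plus strand) each hold a CHR, beginning 42, 18 and 29 bases before the start, and 2, 2 and 6 CCAAT boxes. *Mcm6* (chr1:128359656-128359955, minus strand) holds 3 E2F matches and 2 CCAAT boxes, and *Pcna* (chr2:132253131-132253430, minus strand) holds 1 CCAAT box, both without a CHR.
Ccnb1: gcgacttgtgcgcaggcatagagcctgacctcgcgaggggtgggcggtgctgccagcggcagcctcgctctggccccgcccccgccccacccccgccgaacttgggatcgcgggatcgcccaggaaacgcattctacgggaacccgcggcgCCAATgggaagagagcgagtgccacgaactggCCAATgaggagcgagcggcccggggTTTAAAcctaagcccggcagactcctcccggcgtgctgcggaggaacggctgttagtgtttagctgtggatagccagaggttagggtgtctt
Cdc20: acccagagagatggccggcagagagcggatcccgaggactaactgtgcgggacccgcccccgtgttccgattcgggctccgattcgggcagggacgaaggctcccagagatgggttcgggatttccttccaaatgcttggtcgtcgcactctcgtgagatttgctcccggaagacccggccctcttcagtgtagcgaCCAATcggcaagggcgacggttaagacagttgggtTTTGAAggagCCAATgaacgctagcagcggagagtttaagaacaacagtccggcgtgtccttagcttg
Ube2c: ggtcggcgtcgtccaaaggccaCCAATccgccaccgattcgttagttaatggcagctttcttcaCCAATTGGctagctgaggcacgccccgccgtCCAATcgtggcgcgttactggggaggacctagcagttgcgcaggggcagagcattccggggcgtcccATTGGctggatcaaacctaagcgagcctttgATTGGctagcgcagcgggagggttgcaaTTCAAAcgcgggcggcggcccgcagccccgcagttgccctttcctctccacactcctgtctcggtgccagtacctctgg
Mcm6: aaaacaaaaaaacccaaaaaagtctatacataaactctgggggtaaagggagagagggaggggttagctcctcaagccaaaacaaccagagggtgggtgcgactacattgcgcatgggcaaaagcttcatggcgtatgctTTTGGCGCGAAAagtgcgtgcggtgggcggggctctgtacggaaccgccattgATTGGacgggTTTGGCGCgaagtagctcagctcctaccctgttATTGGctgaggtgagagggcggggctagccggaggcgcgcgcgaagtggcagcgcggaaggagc
Pcna: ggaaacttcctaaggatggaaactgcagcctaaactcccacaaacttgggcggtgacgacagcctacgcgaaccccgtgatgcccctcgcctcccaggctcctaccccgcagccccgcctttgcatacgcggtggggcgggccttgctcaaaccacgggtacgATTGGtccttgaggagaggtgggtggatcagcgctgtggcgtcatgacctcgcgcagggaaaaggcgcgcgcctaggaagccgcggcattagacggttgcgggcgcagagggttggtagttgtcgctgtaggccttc

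A CHR and a CCAAT box were found together in 16 of the 19 G2/M promoters and in 3 of the 12 G1/S promoters, against 12.2% of all genes with a promoter of this length. The CHR alone was in 17 of 19 and 5 of 12 (30.6% of all genes), and the CCAAT box in 17 of 19 and 8 of 12 (41.1% of all genes). An E2F match was in 1 of the 19 G2/M promoters and 4 of the 12 G1/S promoters (2.6% of all genes). These matches describe letters in a window and show no binding.

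Other genes of the cycle, 133 in 8 lists, were compared in the same way, in lists written from general knowledge with earlier results of these data known. In the liver 64 of the 133 rose and 1 fell by the adjusted rule, against 13.9% and 1.95% of all genes, with a median change of 0.62 log2 against 0.19. On the median-ratio scaled values 44 were higher and 3 lower, against 5.45% and 4.65% of all genes, with a median of 0.35 log2 against 0.00. The 3 were *Mcm10* (-1.94 log2, adjusted p = 0.039), *Rbl2* (-0.83 log2, adjusted p = 0.0283) and *Rbbp4* (-0.82 log2, adjusted p = 0.026). Without LKO 1, 66 were called higher, against 23.5% of all genes. Of 20 genes of the spindle and cytokinesis 17 rose, with a median of 1.27 log2 (15 and 1.14 log2 after scaling). *Ect2*, which activates RhoA for cytokinesis, was 0.168, 0.301 and 0.278 FPKM in Ctrl and 10.3, 4.46 and 4.16 FPKM in LKO (log2 fold change 2.45, adjusted p = 0.00615), and *Hmmr* and *Racgap1*, of the spindle and the midzone, rose by 2.36 and 2.32 log2. Of 17 kinetochore genes 14 rose, with a median of 0.90 log2 (9 and 0.73 log2 after scaling), led by the checkpoint gene *Mad2l1*, at 1.19, 1.19 and 1.07 FPKM in Ctrl and 10.6, 6.2 and 5.83 FPKM in LKO (log2 fold change 1.95, adjusted p = 0.00485), then *Spc25* (1.69 log2) and *Ttk* (1.52 log2). Of 9 genes of condensin and separase 7 rose, with a median of 0.95 log2 (5 and 0.85 log2 after scaling), led by *Smc4*, *Ncapd2* and *Ncaph*, all of condensin, at 1.65, 1.42 and 1.31 log2. In a list of 13 other cyclins, CDKs, CDC25 phosphatases and kinases of mitosis, 8 rose, with a median of 0.74 log2 (6 and 0.55 log2 after scaling). None of its cyclins and CDKs (*Ccnd2*, *Ccnd3*, *Cdk2*, *Cdk4* and *Cdk6*) passed, with adjusted p-values of 0.058 to 0.218, and the 8 were *Cdc25a*, *Cdc25b*, *Cdc25c*, *Melk*, *Nek2*, *Wee1*, *Pbk* and *Pkmyt1*. *Nek2*, a centrosomal kinase, was 0.951, 1.52 and 1.31 FPKM in Ctrl and 12.7, 6.87 and 7.09 FPKM in LKO (log2 fold change 2.09, adjusted p = 0.00530). *Pbk* and *Pkmyt1*, kinases of mitosis and of CDK1 inhibition, rose by 2.01 and 1.57 log2.

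The replication lists had smaller medians, and the 13.9% of all liver genes called higher and their median of 0.19 log2 stand beside each count here. Beside the scaled counts stand 5.45% of all genes called higher and 4.65% lower. Of 26 genes of the replication fork 6 rose, with a median of 0.48 log2. After median-ratio scaling 2 of the 26 were called higher, which is near the share of all genes, with a median of 0.13 log2. The 6 were led by the chromatin assembly gene *Chaf1a* (1.11 log2), the ligase *Lig1* (1.10 log2) and *Uhrf1* (0.98 log2), which helps to copy DNA methylation. Of 20 genes of origin licensing and firing 4 rose, with a median of 0.27 log2, and after scaling 3 were called higher, with a median of 0.16 log2 against 0.00 for all genes. Those that rose included *Dbf4*, the activator of the CDC7 kinase, at 0.796, 1.14 and 1.14 FPKM in Ctrl and 7.12, 4.73 and 5.05 FPKM in LKO (log2 fold change 1.70, adjusted p = 0.00425), and *Gins2* (1.54 log2), of the replicative helicase. *Mcm10*, an initiation factor, fell, from 16.3, 29.8 and 10.2 FPKM in Ctrl to 8.34, 4.57 and 3.51 FPKM in LKO (log2 fold change -1.56, adjusted p = 0.0417), and its Ctrl levels lay above those of every MCM helicase gene. Of 15 genes of the E2F and MuvB factors 2 rose, *Tfdp1* (0.65 log2) and *Lin54* (0.59 log2), with a median of 0.39 log2 over the list. That share is near the background, and after scaling none of the 15 was called higher and 1, *Rbbp4*, was lower, with a median of 0.12 log2.

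Of 13 CDK inhibitors, pocket proteins and antiproliferative Btg genes 6 rose, with a median of 0.57 log2, against 13.9% and 0.19 log2 over all liver genes. After scaling 4 were called higher and 1 lower, with a median of 0.35 log2, against 5.45%, 4.65% and 0.00 log2. The other 7 (*Cdkn1b*, *Cdkn1c*, *Cdkn2a*, *Cdkn2b*, *Cdkn2d*, *Rb1* and *Rbl2*) did not pass. Of these, *Rbl2*, which encodes the pocket protein p130, was 8.44, 7.99 and 8.6 FPKM in Ctrl and 6.91, 5.78 and 5.04 FPKM in LKO (log2 fold change -0.44, adjusted p = 0.0438), with all LKO livers lower. That change was under the fold limit, whereas on the scaled values it was -0.83 log2 and *Rbl2* was called lower (adjusted p = 0.0283). *Cdkn1a*, which encodes p21, an inhibitor of cyclin-dependent kinases, was 20.4, 19.2 and 28.1 FPKM in Ctrl and 57.6, 84.7 and 90.5 FPKM in LKO (log2 fold change 1.73, adjusted p = 0.00605). LKO 1, the highest LKO liver for the G2/M genes, was the lowest of the 3 for *Cdkn1a*. *Btg2*, an antiproliferative gene, was 2.44, 2.61 and 3.23 FPKM in Ctrl and 14.7, 12.6 and 15.2 FPKM in LKO (log2 fold change 2.01, adjusted p = 0.00169). *Cdkn3*, a phosphatase of CDKs that is itself made in dividing cells, was 0.193 FPKM in Ctrl 1 and listed at 0 in Ctrl 2 and Ctrl 3, and was 8.99, 4.76 and 3.88 FPKM in LKO (log2 fold change 2.63, adjusted p = 0.00438).

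**Figure D3:**
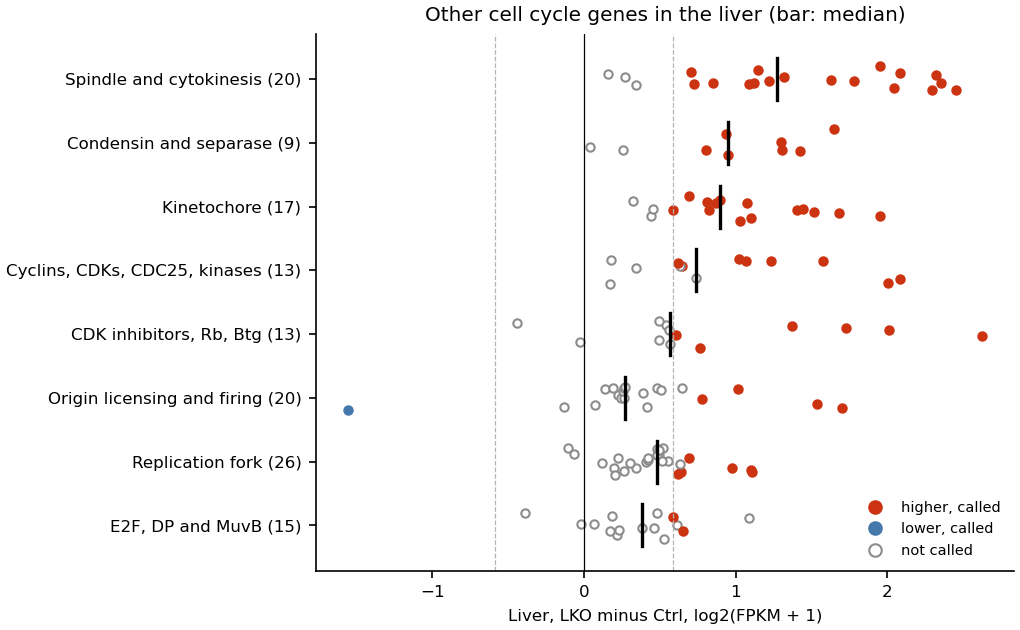
Log2 change in the liver (LKO minus Ctrl, log2(FPKM + 1)) of 133 other cell cycle genes in 8 lists, each point a gene, with red called higher, blue called lower and open symbols not called. Black bars give the list medians on the unscaled values, from 1.27 for spindle and cytokinesis to 0.27 for origin licensing, and the blue point is *Mcm10*.

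Markers of other cell types moved with the genotype in the same livers. Macrophage markers summed to 204 to 219 FPKM in Ctrl and 450, 497 and 665 FPKM in LKO 1 to 3, and 10 of 11 were called higher, against 13.9% of all liver genes. Cholangiocyte markers summed to 36.7 to 39.4 FPKM in Ctrl and 48.2, 96.9 and 83.4 FPKM in LKO (4 of 6 called higher), stellate cell markers to 9.25 to 11.6 FPKM and 22.2, 29.5 and 32.3 FPKM (4 of 6), and endothelial markers to 79.0 to 80.2 FPKM and 89.8, 121 and 149 FPKM (3 of 6). Each of these 4 sums was lowest among the LKO livers in LKO 1, the library in which the G2/M genes were highest. Lymphocyte markers were 4.15 to 5.58 FPKM in Ctrl and 8.20, 5.94 and 9.59 FPKM in LKO (1 of 10), and neutrophil markers 0.997 to 1.51 FPKM and 9.73, 7.6 and 7.31 FPKM (2 of 7), with *Ly6g*, *Mpo* and *Elane* under 0.1 FPKM in all 6 livers. The neutrophil sum, like the hepatocyte sum given above, was highest in LKO 1, as the G2/M genes were. Erythroid markers summed to 178 to 271 FPKM in Ctrl and 229, 192 and 181 FPKM in LKO 1 to 3 (0 of 7), also highest in LKO 1 among the LKO livers. Adipocyte markers summed to 12.9 to 14.4 FPKM in Ctrl and 33.4 to 35.6 FPKM in LKO, with *Fabp4* and *Cidec* called higher (2 of 5) and *Adipoq*, *Plin1* and *Lep* under 0.3 FPKM in all 6 livers. Muscle markers summed to 4.61 to 12.6 FPKM in Ctrl and 12.5 to 17.9 FPKM in LKO (0 of 5). The counts of lymphocyte, erythroid and muscle markers called did not exceed the background. On the scaled values 10 macrophage, 3 cholangiocyte, 2 stellate, 1 endothelial, 2 neutrophil, 1 adipocyte and 1 lymphocyte marker were called higher and *Cd4* lower, against 5.45% and 4.65% of all genes. In 3 further lists, 2 of 3 mammary, 1 of 5 oligodendrocyte precursor and 0 of 3 hypothalamic markers tested were called higher, on either scale. Of the mammary list, *Krt14*, *Krt5*, *Csn3* and *Wap* were under 0.1 FPKM in all 6 livers. The part of these cells in the cell cycle values was not tested.

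Outside the liver none of the 39 genes passed either rule. In each of the other tissues limma called 0.0% of all genes by the adjusted rule in either direction. The unadjusted rule called 1.33% of all iWAT genes higher and 0.81% lower, 0.336% and 0.217% in GM, and 0.0895% and 0.129% in hypothalamus. At an unadjusted p under 0.05, whatever the fold, 0 of the 39 passed in iWAT (12.9% of all genes), 1 in GM (5.76%) and 3 in hypothalamus (4.18%), against 38 of 39 in liver (45.1%). The median change of the G2/M genes was -0.16 log2 in iWAT, -0.02 in GM and 0.02 in hypothalamus, and that of the G1/S genes -0.13, 0.02 and -0.06, with medians over all genes between -0.01 and 0.00.

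**Figure D4:**
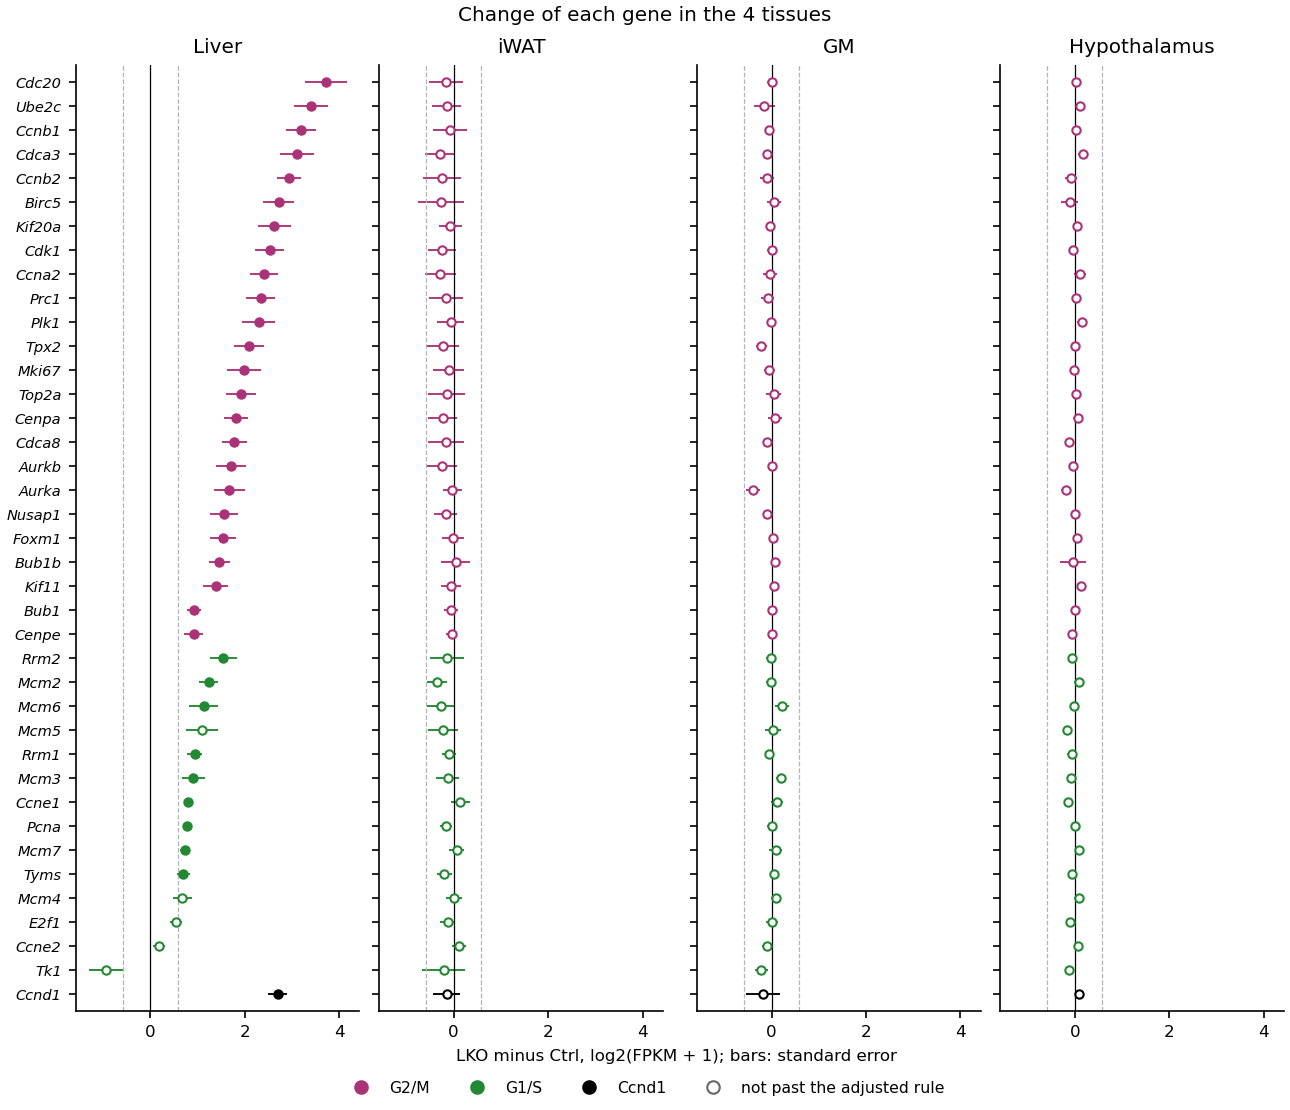
Log2 change (LKO minus Ctrl, log2(FPKM + 1), with standard errors) of the 39 genes in liver, iWAT, GM and hypothalamus, with G2/M genes in purple, G1/S genes in green and *Ccnd1* in black, filled where past the adjusted rule. Dashed lines mark 1.5-fold. The liver panel reaches 3.71 for *Cdc20*, and in the other 3 panels every symbol is open and within the dashed lines.

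In iWAT the groups overlapped in all 39 genes, whereas 9.28% of all genes were without overlap and higher and 8.37% lower, and 1 Ctrl library stood apart. *Mki67* was 0.443, 2.24 and 0.645 FPKM in Ctrl 1 to 3 and 0.823, 0.539 and 1.2 FPKM in LKO 1 to 3. *Birc5* was 0.854, 5.44 and 1.31 FPKM in Ctrl and 1.72, 0.959 and 2.01 FPKM in LKO, and in both genes Ctrl 2 was above all 5 other libraries. The same held for *Top2a*, at 0.687, 3.49 and 1.27 FPKM in Ctrl and 1.41, 0.794 and 1.93 FPKM in LKO. Ctrl 2 was the highest Ctrl library for 24 of 24 G2/M genes and 13 of 14 G1/S genes, at a median of 3.56 times the mean of Ctrl 1 and Ctrl 3 for the G2/M genes. Its macrophage markers summed to 2608 FPKM, against 1069 and 1758 FPKM in Ctrl 1 and Ctrl 3 and 1055 to 1358 FPKM in LKO, and its lymphocyte markers to 27.7 FPKM, against 14.9 and 16.4 FPKM in the other Ctrl libraries, and their part was not tested. With it, 1 of the 24 G2/M genes was above 0, and without it 24 of 24 were, with a median of 0.20 log2, and the G1/S median went to 0.12. So the sign of the iWAT medians rested on 1 library. Among LKO libraries of iWAT, LKO 3 was the highest for 23 of the 24 G2/M genes.

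In GM, *Aurka* was 3.22, 2.83 and 4.1 FPKM in Ctrl and 2.2, 2.79 and 2.0 FPKM in LKO, with all LKO libraries lower by a narrow margin (log2 fold change -0.39, SE 0.149, adjusted p = 0.858), and *Tyms*, with 0.195, 0.156 and 0.147 FPKM in Ctrl and 0.239, 0.201 and 0.196 FPKM in LKO, with all LKO libraries higher. Among all GM genes 5.71% were without overlap and lower and 4.02% higher, and these were the only members without overlap. LKO 1 of GM was the highest LKO library for 22 of the 24 G2/M genes, and its lymphocyte markers summed to 48.2 FPKM, against 0.535 to 12.2 FPKM in the other 5 libraries, and their part was not tested. Without it, the median was -0.11 log2 for G2/M and -0.06 for G1/S, beside -0.05 over all GM genes.

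In hypothalamus the groups did not overlap in *Mcm7*, which was higher, and in *Mcm5*, *Cenpe* and *Cdca8*, which were lower, against 4.34% and 4.78% of all genes. *Mcm5* was 1.26, 1.09 and 1.28 FPKM in Ctrl and 1.01, 1.01 and 0.903 FPKM in LKO (log2 fold change -0.16), and *Cdca8* was 0.515, 0.487 and 0.496 and 0.371, 0.378 and 0.411 FPKM (log2 fold change -0.11), with adjusted p-values of 0.999. Each of the 4 differed by well under 1.5-fold on the log2(FPKM + 1) scale. *Pcna* was level across the 6 libraries, at 23.1, 23.3 and 22.9 FPKM in Ctrl and 24.2, 22.3 and 23.3 FPKM in LKO.

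*Ccnd1* was 6.48, 14.3 and 9.5 FPKM in Ctrl and 10.9, 6.84 and 8.61 FPKM in LKO of iWAT (log2 fold change -0.14, adjusted p = 0.867). In GM it was 3.82, 3.25 and 2.4 and 5.09, 1.29 and 2.45 FPKM (log2 fold change -0.18, adjusted p = 0.958), and in hypothalamus 14.7, 13.7 and 13 and 16.4, 13.7 and 14.1 FPKM (log2 fold change 0.08, adjusted p = 0.999). The groups overlapped in all 3 tissues, and hypothalamus held the highest Ctrl level of the 4 tissues.

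**Figure D5:**
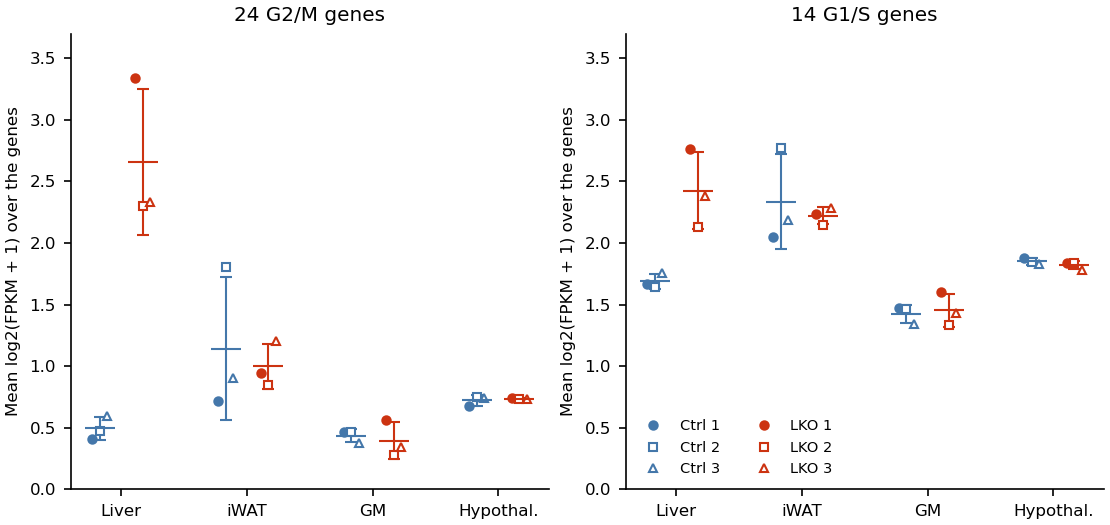
Mean log2(FPKM + 1) over the 24 G2/M genes (left) and the 14 G1/S genes (right) in each of the 24 libraries, with group means and SD (n = 3). The G2/M mean is 0.41, 0.48 and 0.59 in Ctrl livers and 3.34, 2.30 and 2.34 in LKO livers, and the single high Ctrl library of iWAT is Ctrl 2, at 1.81.

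Whether the LKO effect differed between tissues was tested in 1 limma fit of the 24 libraries, which took libraries of different tissues as independent. The F test over 3 interaction contrasts passed an adjusted p of 0.05 for 35 of the 39 genes, 24 of 24 G2/M, 10 of 14 G1/S and *Ccnd1*, against 25.3% of all genes. Fewer of the 39 passed after median-ratio scaling or quantile normalization, with the counts given at the end. The change in liver differed from that in iWAT for 24 G2/M and 12 G1/S genes (26.2% of all genes), from that in GM for 24 and 8 (23.7%), and from that in hypothalamus for 24 and 11 (24.6%). *Tk1*, *Ccne2*, *Mcm4* and *Mcm5* did not pass the F test, with adjusted p-values of 0.533, 0.663, 0.0782 and 0.0503.

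In Ctrl mice the G1/S genes were most abundant in iWAT, with a summed level of 99.1 ± 26.0 FPKM (SD, n = 3), followed by hypothalamus at 57.2 ± 1.23, liver at 52.9 ± 0.260 and GM at 38.7 ± 3.14 FPKM, and the 3 libraries of no tissue overlapped with those of its neighbour in this order. Without *Pcna* and *Tk1*, in a sum chosen after the data were seen, GM at 22.04 ± 1.64 came before liver at 21.0 ± 1.98 FPKM, and their libraries overlapped. The G2/M genes summed to 35.5 ± 26.8 FPKM in iWAT, 18.9 ± 2.40 in hypothalamus, 11.4 ± 2.27 in liver and 10.6 ± 0.777 FPKM in GM. Here iWAT overlapped with hypothalamus, and liver with GM, while the lowest hypothalamus library was above the highest liver library. Of the genes, 19 of 24 G2/M were highest in iWAT. This count and level rested on Ctrl 2 of iWAT, without which the iWAT sum was 20.1 FPKM, and 10 of the 24 were highest in iWAT and 11 in hypothalamus. By median-ratio scaling over the Ctrl libraries the order was liver, iWAT, GM and hypothalamus for G1/S and iWAT, liver, GM and hypothalamus for G2/M, so the place of the liver rested on the scaling. On the FPKM scale the LKO livers, with a G2/M sum of at least 119.5 FPKM, were above every Ctrl library of any tissue, the highest of which was iWAT Ctrl 2 at 66.2 FPKM.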

How the data were processed

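The authors deposited FPKM per gene in 1 joined table and, for each library, a StringTie-like table with TPM, FPKM and the mean coverage of each gene, all on mm10. The submitters' processing notes name HISAT2 2.0.5, STAR 2.5.2b and StringTie 1.3.3b among other tools, without roles. The deposited coverage is an unscaled signal, from which depth was inferred. Counts are not used here, so counting error could not be given, and whether reads were counted by strand is not stated.

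The 39 genes and all lists were chosen with earlier results of these data known. In each tissue, genes above 0 in any of the 6 libraries (liver 17883, iWAT 18885, GM 18429, hypothalamus 20101) entered the fit on log2(FPKM + 1), made by lmFit and trended eBayes of limma 3.58.1 under R 4.3.3. All 39 genes passed this filter in every tissue. The script was tested on simulated data. Values in every library were given for the called genes with the 12 largest changes in G2/M and the 8 largest in G1/S in liver, for *Ccnd1*, *Mki67*, *Pcna* and *Cdk1*, and for up to 3 called genes of each other list. Further genes with such values were chosen after their values were seen. Alternatives were other filters, a pseudocount of 0.1, the deposited TPM of the authors, median-ratio scaling, quantile normalization, ordinary or robust variances, all 24 libraries in 1 fit, a replicate block, a 2-fold limit and leaving out each library. Sums and medians over genes carry no p. RefSeq promoters came from a reference table for the genome build GRCm38.p6. Pseudogenes were sought only by symbol (the gene name followed by ps) in the joined table, so copies named otherwise would be missed.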

Additional observations from a re-analysis of the deposited data

Results flagged for a closer look

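On the deposited FPKM, the change from Ctrl to LKO was not equal in the 4 tissues for 35 of the 39 genes, by the F test over the 3 interaction contrasts of limma with p adjusted over all genes. Fewer passed after scaling, as given below. In each of these 35 genes all 3 LKO livers were above all 3 Ctrl livers. Among the G2/M genes the adjusted p was 1.7e-05 for *Ube2c*, 1.8e-05 for *Ccnb1*, 2.2e-05 for *Cdca3*, 2.3e-05 for *Cdc20*, 3.8e-05 for *Cdk1*, 4.7e-05 for *Kif20a* and 4.9e-05 for *Ccnb2*. It was 2.0e-04 for *Ccna2*, 3.2e-04 for *Plk1*, 3.3e-04 for *Prc1*, 5.7e-04 for *Tpx2*, 7.0e-04 for *Aurka*, 7.3e-04 for *Birc5* and 8.5e-04 for *Bub1*. The other 10 genes of the group had 0.00101 (*Nusap1*), 0.00105 (*Cenpa*), 0.00134 (*Foxm1*), 0.0015 (*Cenpe*), 0.0017 (*Mki67*), 0.00188 (*Cdca8*), 0.00215 (*Aurkb*), 0.00355 (*Kif11*), 0.00363 (*Top2a*) and 0.0151 (*Bub1b*).

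Among the G1/S genes the adjusted p of the interaction was 5.7e-04 for *Pcna*, 8.3e-04 for *Mcm2*, 0.0014 for *Rrm1*, 0.00203 for *Tyms* and 0.00589 for *Rrm2*. It was 0.0147 for *Mcm7*, 0.015 for *Ccne1*, 0.026 for *E2f1*, 0.0307 for *Mcm3* and 0.032 for *Mcm6*. *Ccnd1* had 1.3e-04. The groups of 3 libraries were too small for the test of single outlying samples, and the libraries that stood highest (LKO 1 in liver, Ctrl 2 in iWAT and LKO 1 in GM) are given as values in the comparisons they touch.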

How the results depend on the processing

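In the liver, the count of the 39 genes called higher by the adjusted rule (34) fell to 9 with a mean of at least 5 FPKM, which leaves 10 of them tested, to 21 with quantile normalization and to 21 with ordinary variances (all-gene counts follow), and ranged from 20.0 to 35 when 1 library was left out. No G2/M gene had a Ctrl mean above 2.6 FPKM in liver, so those left by the mean filter passed it through their LKO livers. Their calls under that filter are no separate support. The count called lower (0) was 1, *Tk1*, with all 24 libraries in 1 fit, and 0 to 1 with a library left out. By the unadjusted rule 9 were higher with the mean filter, 34 to 37 with a library left out, and the 1 lower gene became 0 with ordinary variances, 0 with TPM and 0 at 2-fold, and 0 to 1 with a library left out. The G1/S median (0.79 log2) was 1.08 with a pseudocount of 0.1, 1.03 with TPM, 0.50 with median-ratio scaling and 0.46 with quantile normalization, and 0.72 to 0.85 with a library left out. The G2/M median (2.04) was 3.15 with the mean filter, which kept only G2/M genes that were high in LKO. It was 3.6 with the pseudocount of 0.1 and 2.68 with TPM, and 1.65 to 2.25 with a library left out. *Ccne2* reversed to -0.018 with quantile normalization. Outside the liver, the GM G2/M median was -0.157 in genes of at least 1 FPKM in 3 libraries, and with a library left out GM medians were -0.06 to 0.09 (G1/S) and -0.11 to 0.03 (G2/M), and iWAT medians -0.266 to 0.119 and -0.36 to 0.20. In hypothalamus the G1/S median was 0.001 with that filter, -0.028 with the mean filter, -0.097 with the pseudocount of 0.1 and -0.075 to 0.002 with a library left out, and the G2/M median 0.038 with that pseudocount, 0.043 with TPM and -0.001 to 0.026 with a library left out. The mean filter left no G2/M gene outside the liver and thus no median there. The interaction count (35, against 25.3% of all genes) was 4 of 4 tested with the mean filter (40.2%), 27 with median-ratio scaling (18.3%) or quantile normalization (16.8%), and 31 to 37 with a library left out. By median-ratio scaled levels, Ctrl liver ranked 1, iWAT 2, GM 3 and hypothalamus 4 for G1/S, and liver 2, GM 3 and hypothalamus 4 for G2/M. By TPM, liver ranked 4 and GM 3 for G2/M, and with a library left out both lay between 3 and 4. Without *Pcna* and *Tk1*, an alternative chosen after seeing the data, liver ranked 4 and GM 3 for G1/S. Over all liver genes the count called higher (2487) was 975 with median-ratio scaling, 845 with quantile normalization, 1024 with ordinary variances, 1481 of 6949 tested with the mean filter, 4129 with the pseudocount of 0.1, 4457 with TPM and 1094, 813 and 829 without Ctrl 1, 2 and 3. Of 592 values of the 39 genes in liver under the alternatives, 499 kept direction and side of the rule, 77 lost the call and 15 gained it. The causes were not tested.

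Same-numbered libraries did not deviate together in every pair, so the numbers are not taken as pairing. Their correlations were 0.154, 0.0276 and 0.0359 in liver, and over the tissues ran from -0.135 (hypothalamus, number 1) to 0.354 (GM, number 1). With a block for the replicate number, 33 genes were called higher in liver, without *Mcm6* (adjusted p = 0.0737) and *Tyms* (0.0531) and with *Mcm5* (0.0495), and over all liver genes 1674 were higher and 290.0 lower. Depth was known only in gigabases, the values were not counts, and 20 of the 24 G2/M genes were under 1 FPKM in Ctrl livers, where the log2(FPKM + 1) scale understates a change.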
